A study of Homo sapiens with 9 samples.

Results

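Both transfected forms of miR-376a* were set together against the control transfection in SW1783 cells, which are a long-established glioma line of human origin. The comparison takes the mean of the miR-376a*A and miR-376a*G group means minus the mean of the control group, so each form has equal weight. It uses all 9 arrays of the series, 6 treated and 3 control, and is given beside a run on 8 arrays that leaves out control replicate 1. In every group 100000 cells received a miRNA duplex at 50 nM with the lipid reagent Lipofectamine RNAiMAX, and total RNA was taken 24 h later. The groups were miR-376a*A, miR-376a*G and miR-control, with 3 biological replicates each per the labels. No untransfected cells were among the samples used here, and the sequence of the control duplex is not given in the sources used here. A difference that both forms share can therefore not be told apart from an effect of the control duplex itself. All cells came from 1 line, so the p-values below measure the spread between replicate transfections of that line.

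A microRNA guides the silencing machinery to messenger RNAs that pair with its seed, a short stretch near its 5′ end, and lowers their level or translation. RNA editing by ADAR enzymes turns adenosine into inosine, which pairs as guanosine does, so an edited base in the seed changes which messages pair. The miR-376 family lies in an imprinted microRNA cluster and is edited in brain; the A and G forms stand for the unedited and the edited base. What the forms had in common is described here, with the places where they parted.

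RefSeq lists 2 mature star-strand entries of miR-376a, which are shown because the labels name neither the locus nor the position of the edited base. Coordinates are of GRCh38.p14, on the plus strand. The sequences run from 5′ to 3′, and the capitals mark the seed, bases 2 to 8.
hsa-miR-376a-5p, chr14:101040788-101040809: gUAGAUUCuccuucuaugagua
hsa-miR-376a-2-5p, chr14:101040080-101040100: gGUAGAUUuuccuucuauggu
The seeds of the entries are offset by 1 base from each other. The duplexes that were transfected, with A or G at the edited base, were not matched to either entry.

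Control replicate 1 stood apart from the other arrays. Its highest rank correlation with any other array was 0.941, against 0.969 to 0.970 for the others, and its brightest probe set read 7191 signal units, against 3601 to 4374. The median SD of a gene over the 3 control arrays was 0.24 on the log2 scale. It was 0.096 for control replicates 2 and 3 alone, 0.089 for miR-376a*A and 0.097 for miR-376a*G. The median SD of 2 arrays reads lower than that of 3 at the same spread, so the value of 0.096 is not on equal terms with the others. Of 15 astrocyte and glioma markers, 9 were above the filter on dim probe sets and 0 were called; VIM and CD44 were bright, while GFAP, S100B and AQP4 lay below the filter. The 10 fibroblast markers were all above the filter, with COL1A2 the brightest, and 0 of them were called. Their summed signal was 8298 to 9295 in treated arrays and 8083 to 12680 in controls. Of 10 neuron markers 7 were above the filter, and 2 rose and 1 fell, as given below with their values.

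The pooled response held more and larger rises than falls. Among 12505 genes, 616 (4.93%) passed limma's test at a Benjamini-Hochberg adjusted p under 0.05; 380 rose (3.04%) and 236 fell (1.89%). A change of at least 2-fold was seen for 61 rises (0.488%) and 9 falls (0.0720%). These counts moved with the settings: they were 27 and 1 with a pseudocount of 64, 91 and 11 with one of 1, and 36 and 4 with the mean of a gene's probe sets. Leaving out 1 array other than control replicate 1 gave 50 to 86 such rises and 5 to 9 such falls. The median change was 0.62 on the log2 scale for the rises and -0.53 for the falls, against 0.0025 for all genes. All 6 treated arrays lay above all 3 controls in 841 genes (6.73%) and below them in 439 (3.51%), called or not; for called genes these numbers were 367 (2.93%) and 130 (1.04%). A gap between the arrays was thus present for 367 of 380 rises and for 130 of 236 falls. Leaving out any 1 of the 6 treated arrays lowered the count of calls to between 293 and 365. Leaving out control replicate 2 gave 549 calls, and leaving out control replicate 3 gave 476, of which 148 were falls. Median centring of the arrays, used instead of quantile normalization, gave 372 rises and 116 falls, or 76.2% rises against 61.7%.

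Without control replicate 1 the response was broader and nearly even. The count of calls was 2242 (17.9%), with 1132 rises (9.05%) and 1110 falls (8.88%). All 616 genes called on 9 arrays were also called in this run, with the same sign. Both runs share 8 arrays, so that is not an independent check. A further 752 genes were called higher and 874 lower only without control replicate 1. The median SE of a change was 0.094 without control replicate 1 and 0.12 with it. Large rises became fewer, with 39 rises (0.312%) and 24 falls (0.192%) of at least 2-fold. Of the 61 rises of 2-fold on 9 arrays, 34 remained above 2-fold, and all 9 such falls did. By deposited signal, control replicate 1 was the lowest of the 3 controls in 67.1% of the 380 rises and 43.2% of the 236 falls. Over all genes tested it was the lowest in 39.9% and the highest in 48.9%. The median change of the same rises was 0.55 without it, and that of the same falls was -0.50.

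**Figure D1:**
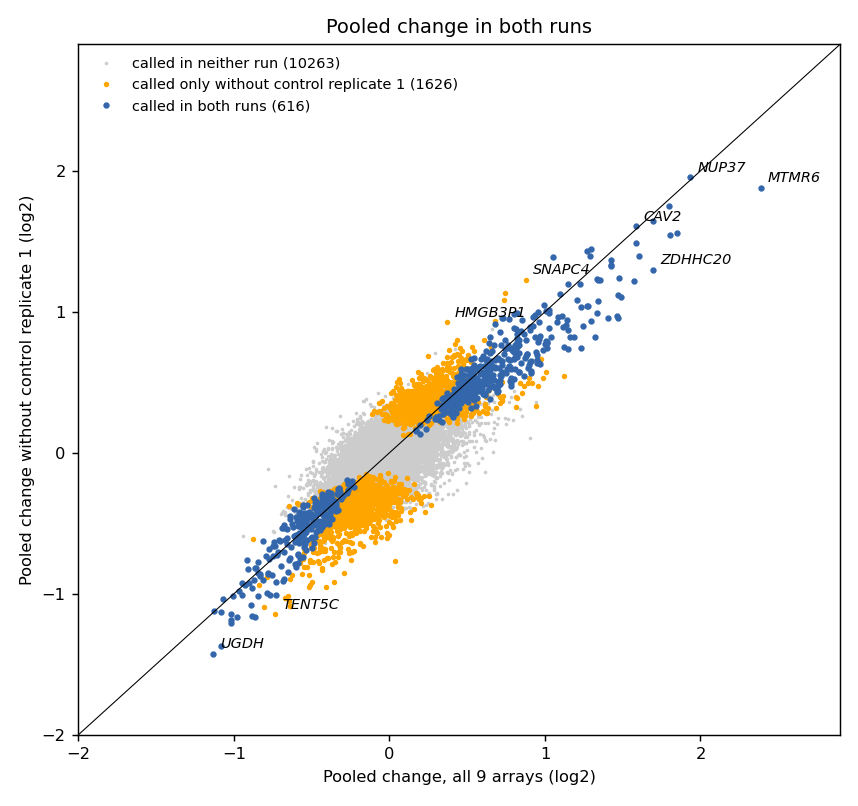
Change of each gene (mean of both forms minus control, log2) on all 9 arrays on the x axis and without control replicate 1 on the y axis. Each point is 1 of 12505 genes; blue marks the 616 genes called in both runs, orange the 1626 called only without control replicate 1 and grey the 10263 called in neither, and a point below the diagonal on the right, such as MTMR6 at 2.39 and 1.88, is a rise that was smaller without that array.

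The 15 leading rises are given with their values and roles. MTMR6, a myotubularin-family phosphatase of phosphoinositide lipids, had the largest rise. It read 423, 542 and 588 deposited signal units at the lowest, median and highest of the 6 treated arrays and 38.5, 138 and 123 in control replicates 1, 2 and 3. The groups did not overlap, and control replicate 1 was the lowest array. The change was 2.39 (SE 0.29) on the log2 scale, 5.23-fold on the log2(signal + 16) scale, with limma's adjusted p of 0.00152, and it was 1.88 without control replicate 1. WDFY1, an endosomal protein with a lipid-binding FYVE domain, read 192 to 256 in treated arrays and 33.9, 68.1 and 65.1 in controls. It rose by 1.80 (SE 0.18, adjusted p 0.000492), or 1.54 without control replicate 1. SEC22C acts in traffic between the endoplasmic reticulum (ER) and the Golgi. It read 614 to 678 in treated arrays and 151, 189 and 180 in controls, a rise of 1.80 (SE 0.08, adjusted p 3.01e-06) that was 1.75 without control replicate 1. Here all 3 controls were alike. The 5 other probe sets of SEC22C had changes of -0.07 to 0.96 on all arrays, none past the threshold. Without control replicate 1 that at 0.96 passed, at 0.43 (adjusted p 0.0408).

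ATL3, an atlastin GTPase that shapes ER tubules, read 878 to 968 in treated arrays and 147, 286 and 311 in controls. It rose by 1.85 (SE 0.17, adjusted p 0.00033), or 1.56 without control replicate 1, while a second probe set of ATL3 differed by 0.15 and did not pass. CAV2, a caveolin of the small membrane pits named caveolae, read 1442 to 1654 in treated arrays and 540, 478 and 494 in controls. This rise of 1.58 (SE 0.07, adjusted p 3.01e-06), 3.00-fold, was 1.61 without control replicate 1. It was the same within the error of either form, with 1.58 for miR-376a*A and 1.59 for miR-376a*G and a 95% interval of their difference from -0.20 to 0.17. Of its other probe sets 1 rose by 1.19 and 1 was at 0.52 and did not pass on all arrays. Without control replicate 1 that at 0.52 passed, at 0.61 (adjusted p 0.0165). LAMTOR3, a scaffold of the Ragulator complex on lysosomes, read 245 to 333 in treated arrays and 70.6, 94.9 and 95.7 in controls, a rise of 1.59 (SE 0.11, adjusted p 9.18e-05). ZDHHC20, a palmitoyltransferase that attaches lipid to proteins, read 431 to 502 in treated arrays and 71.2, 197 and 175 in controls. Its rise of 1.69 (SE 0.23, adjusted p 0.00277) was 1.30 without control replicate 1, and its other probe set differed by 0.16, short of the threshold.

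NUP37, a nucleoporin of the Y complex, read 729, 780 and 918 in treated arrays (lowest, median, highest) and 192, 204 and 191 in controls. The rise was 1.93 (SE 0.08, adjusted p 3.01e-06), 3.82-fold, and it was 1.95 without control replicate 1. Its other probe set above the filter differed by 0.16 (adjusted p 0.469), so the rise rests on 1 probe set. CDK8, the kinase of the Mediator complex, read 275 to 316 in treated arrays and 53.7, 132 and 125 in controls. It rose by 1.47 (SE 0.21, adjusted p 0.00397) and by 1.12 without control replicate 1, and its other probe sets rose too, by 1.17 and 1.49. PPP1CC, a catalytic subunit of protein phosphatase PP1, read 1268 to 1383 in treated arrays and 323, 538 and 538 in controls, a rise of 1.48 (SE 0.13, adjusted p 0.000325) that was 1.24 without control replicate 1. ZNF367, a zinc finger transcription factor, read 148 to 209 in treated arrays and 26.3, 96.9 and 75.8 in controls. Its rise of 1.41 (SE 0.28, adjusted p 0.0196) was 0.96 without control replicate 1 and lost the threshold when miR-376a*A replicate 1 or 2 or miR-376a*G replicate 2 or 3 was left out (adjusted p 0.0545 to 0.0573).

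MRPS14, a protein of the small subunit of the mitochondrial ribosome, read 503 to 591 in treated arrays and 137, 192 and 143 in controls, and rose by 1.69 (SE 0.11, adjusted p 4.65e-05). GLO1, the glyoxalase that removes methylglyoxal, was among the brightest of these genes, at 1835 to 2078 in treated arrays and 682, 709 and 766 in controls. Its rise of 1.43 (SE 0.06, adjusted p 3.01e-06), 2.69-fold, was 1.33 without control replicate 1. DPY19L4 read 316 to 375 in treated arrays and 57.1, 135 and 138 in controls, a rise of 1.57 (SE 0.21, adjusted p 0.00277) with 2 other probe sets at 0.39 and 0.36 that did not pass. PHTF2 read 371 to 466 in treated arrays and 71.7, 185 and 180 in controls and rose by 1.49 (SE 0.22, adjusted p 0.00482), with 1 of its other probe sets also called, at 1.00. In 13 of these 15 rises control replicate 1 was the lowest control, and in 13 the rise was smaller without it, with a range of 0.96 to 1.95 in that run. The 15 were taken by the size of the smaller of the 2 form changes among genes whose arrays did not overlap; the last had 1.41 by that measure and the next, TOP2A, 1.35. An exact permutation test cannot go below 0.0119 with 6 against 3 arrays and 0.0357 with 6 against 2, and the choice of genes without overlap fixes that value for nearly all of them.

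The leading falls were smaller than the rises. UGDH, which makes the UDP-glucuronate used for glycosaminoglycans and glucuronidation, had the largest fall. It read 327, 385 and 405 in treated arrays (lowest, median, highest) and 524, 979 and 1040 in controls. No treated array reached the lowest control, which was control replicate 1. UGDH fell by 1.14 on the log2 scale (SE 0.19, adjusted p 0.00855), with -1.17 for miR-376a*A and -1.10 for miR-376a*G, and the change was -1.42 without control replicate 1. PLEKHA1, an adaptor with a lipid-binding PH domain, read 94.5 to 161 in treated arrays and 179, 350 and 390 in controls. Its change was -1.08 (SE 0.20, adjusted p 0.0136), and -1.37 without control replicate 1; it missed the threshold without control replicate 2 (adjusted p 0.0528) or 3 (0.0506). TMTC3, an enzyme that adds mannose to proteins, read 229 to 335 in treated arrays and 407, 577 and 722 in controls, a change of -1.02 (SE 0.15, adjusted p 0.00413). DCP2, the enzyme that removes the cap from messenger RNAs, read 174 to 245 in treated arrays and 305, 424 and 566 in controls. It changed by -0.98 (SE 0.16, adjusted p 0.00767), and by -1.16 without control replicate 1. On all arrays 2 other probe sets of DCP2 were at 0.14 and -0.21 and did not pass. Without control replicate 1 that at -0.21 passed, at -0.53 (adjusted p 0.0241). ATAD1, an ATPase that clears misplaced membrane proteins from mitochondria, read 206 to 278 in treated arrays and 330, 521 and 549 in controls and changed by -0.89 (SE 0.14, adjusted p 0.00664). In each of these 5 genes control replicate 1 was the control nearest to the treated arrays.

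Other falls had controls that lay close together. ARHGAP19, a GTPase-activating protein, read 16.2 to 34.9 in treated arrays and 67.0, 68.6 and 67.0 in controls and fell by 1.00 on the log2 scale (SE 0.14, adjusted p 0.00277). OPN3, an opsin, read 152 to 198 in treated arrays and 343, 353 and 354 in controls and changed by -0.95 (SE 0.10, adjusted p 0.000588). Its other probe set was at -0.39 and short of the threshold on all arrays. That probe set passed without control replicate 1, at -0.61 (adjusted p 0.0225). NACC2, a BTB-domain repressor of transcription, read 211 to 254 in treated arrays and 449, 405 and 402 in controls; its change was -0.85 (SE 0.09, adjusted p 0.000638), and a second probe set was at 0.08. PGM2L1, which makes glucose bisphosphate, read 255 to 309 in treated arrays and 488, 471 and 505 in controls and changed by -0.78 (SE 0.09, adjusted p 0.00129). Of its 4 other probe sets 2 fell, by 0.80 and 1.00, and 2 did not pass, at -0.46 and -0.06. VCL, the focal adhesion protein vinculin, read 592 to 849 in treated arrays and 1385, 1265 and 1386 in controls. The fall of 0.87 (SE 0.08, adjusted p 0.0004) had -0.68 for miR-376a*A and -1.06 for miR-376a*G. TMF1, a golgin of the Golgi surface, read 447 to 598 in treated arrays and 905, 849 and 1024 in controls. Its change was -0.83 (SE 0.09, adjusted p 0.00064), which 5 other probe sets did not show on all arrays (-0.13 to 0.29). Without control replicate 1 that at -0.13 passed, at -0.50 (adjusted p 0.0168). In each of these genes the controls differed from each other by less than their distance to every treated array.

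SLC39A14, an importer of zinc and manganese, read 370 to 682 in treated arrays and 1179, 982 and 1059 in controls. It changed by -1.07 (SE 0.08, adjusted p 9.18e-05), with -1.44 for miR-376a*A and -0.70 for miR-376a*G, and it was the only one of the 15 named falls whose forms differed past the threshold (adjusted p 0.00154). A second probe set was at -0.41 and did not pass. PLS1, a protein that bundles actin, read 37.8 to 93.6 in treated arrays and 115, 155 and 176 in controls and changed by -1.02 (SE 0.14, adjusted p 0.00298). INSIG1, which holds the sterol sensor in the ER, read 551 to 661 in treated arrays and 955, 1078 and 1112 in controls and changed by -0.78 (SE 0.09, adjusted p 0.00084). NARS2-AS1, an antisense RNA, was dim, at 2.61 to 29.4 in treated arrays and 63.7, 51.2 and 72.4 in controls. Its change of -1.13 (SE 0.25, adjusted p 0.0321) was lost in 6 of the 9 runs that each left out 1 array (adjusted p 0.0569 to 0.0991), the exceptions being miR-376a*A replicates 2 and 3 and control replicate 1. Of the 15 falls 10 were larger without control replicate 1. The last of them had a smaller form change of -0.68, as did the next, SFT2D2.

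**Figure D2:**
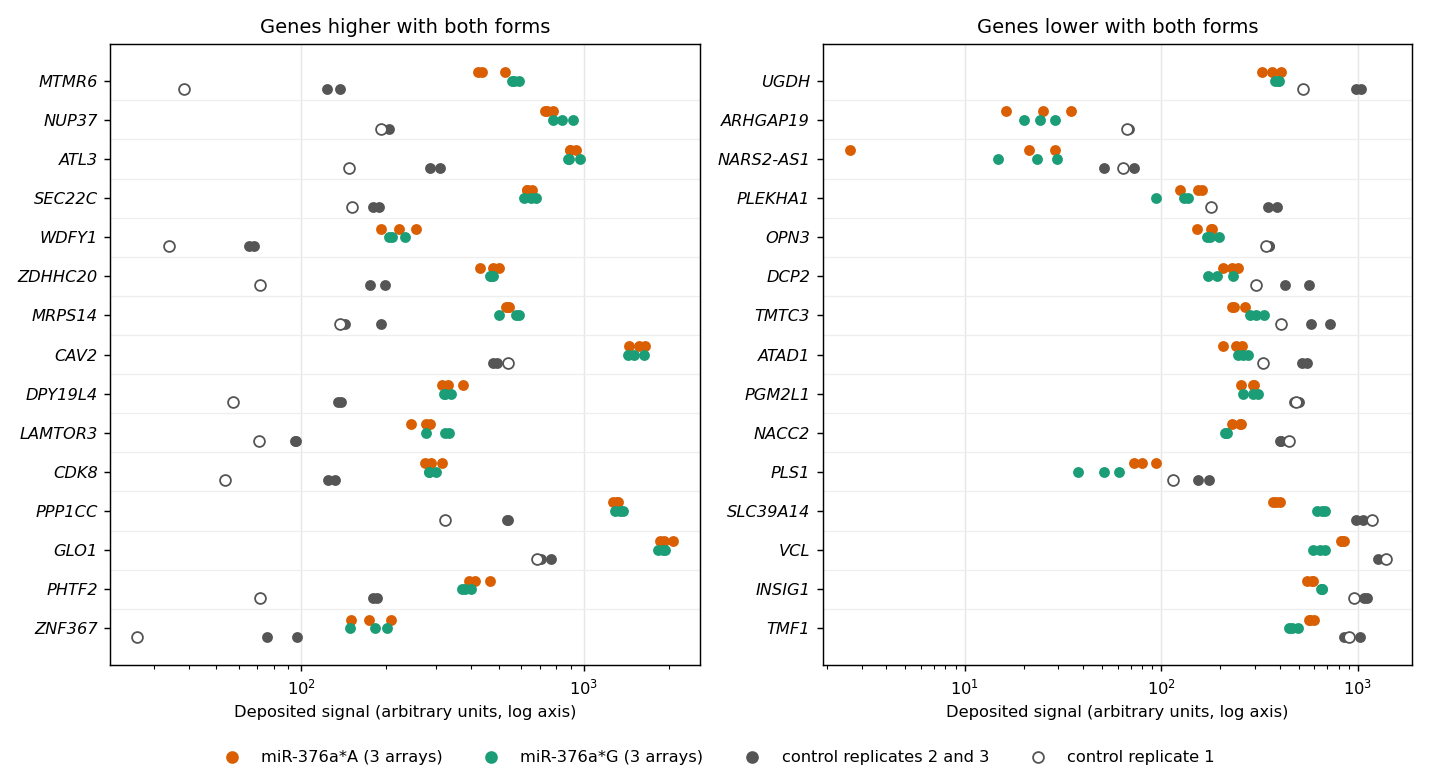
Deposited signal (log axis) of the 15 named rises on the left and the 15 named falls on the right, 1 point per array; orange is miR-376a*A, green miR-376a*G, dark filled points control replicates 2 and 3 and open points control replicate 1. The 30 genes were chosen among those whose treated and control arrays do not overlap after normalization, so that gap is set by the choice. The open point is the lowest control for 13 of the 15 rises.

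The difference between the forms, tested on the same fit, fell unevenly on rises and falls. Over all genes 329 (2.63%) differed between miR-376a*A and miR-376a*G at an adjusted p under 0.05. Among the pooled calls the forms differed in 8 of 380 rises (2.11%) and in 119 of 236 falls (50.4%). Of the 119 falls, 56 were lower after miR-376a*A than after miR-376a*G and 63 were higher. In 91 of them some treated array lay within or above the controls. For 372 rises the form difference did not pass; its median size was 0.10, and its 95% interval lay within 0.5 of 0 for 270 of them. For 117 falls it did not pass, with a median size of 0.24 and an interval within 0.5 of 0 for 59, so for the other falls and rises a difference above 0.5 was within the interval. Without control replicate 1 the forms differed in 1215 of all genes (9.72%), in 89 of the 1132 rises and in 461 of the 1110 falls. Leaving out any 1 treated array lowered the count of pooled calls with a form difference from 127 to between 51 and 72, and centring on medians lowered it to 70. Against control alone, 417 genes (3.33%) passed after miR-376a*A and 578 (4.62%) after miR-376a*G; these comparisons share the control arrays and are not set against each other.

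Of the 3 rises of at least 2-fold whose forms differed, 1 was larger with miR-376a*G and 2 with miR-376a*A. TMEM106B, a lysosomal membrane protein, read 365 to 402 with miR-376a*A, 684 to 716 with miR-376a*G and 111, 197 and 192 in controls. Its pooled change was 1.60 (SE 0.14, adjusted p 0.00025), with 1.18 for miR-376a*A and 2.02 for miR-376a*G, and 2 other probe sets rose by 1.29 and 1.66. IL11, a cytokine of the interleukin-6 family, read 232 to 264 with miR-376a*A, 120 to 151 with miR-376a*G and 50.0, 68.3 and 62.9 in controls, a pooled change of 1.43 (SE 0.12, adjusted p 0.00025). NEURL1B, a ubiquitin ligase, read 153 to 158 with miR-376a*A, 87.6 to 91.1 with miR-376a*G and 33.2, 46.8 and 39.3 in controls, a pooled change of 1.34 (SE 0.11, adjusted p 0.000221). In all 3 genes both forms lay above the controls. SRPRA, a part of the receptor for the signal recognition particle, and DCAKD also rose more with miR-376a*A, by 1.14 and 1.03 against 0.50 and 0.40 with miR-376a*G.

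Several pooled falls came from 1 form. RRAS2, a small GTPase related to Ras, read 133, 172 and 142 for miR-376a*A, 808, 715 and 852 for miR-376a*G and 698, 821 and 736 in controls. The miR-376a*G arrays overlapped the controls, and the pooled change of -1.08 (SE 0.10, adjusted p 0.000411) is the average of -2.23 and 0.07. TOR1B, a torsin ATPase of the ER, read 117 to 125 with miR-376a*A, 568 to 683 with miR-376a*G and 490, 562 and 591 in controls; its pooled change of -0.95 averages -2.04 and 0.15. The opposite held for DPYSL3, a cytoskeletal protein of growing neurites, which read 1251 to 1346 with miR-376a*A, 415 to 468 with miR-376a*G and 1620, 1339 and 1504 in controls. Its pooled change of -0.96 averages -0.19 and -1.74. LMLN, a metallopeptidase, read 267 to 297 with miR-376a*A, 91.8 to 114 with miR-376a*G and 262, 414 and 411 in controls, with a pooled change of -1.02 from -0.37 and -1.67. Each of RRAS2, DPYSL3 and LMLN had at least 1 other probe set that fell and 1 that did not pass on all arrays. Without control replicate 1 the latter passed for RRAS2, at -0.37 (adjusted p 0.00831), and for LMLN, at -0.70 (0.0036). With the 6 treated arrays fitted as 1 group these 4 genes no longer passed (RRAS2 at an adjusted p of 0.403, TOR1B 0.44, DPYSL3 0.262, LMLN 0.183), since the difference between the forms then counts as spread. The same holds for DCAKD (0.0716), and for CCN2 (0.354), PACSIN2 (0.219), PIP4K2A (0.0701), RTN4 (0.313), SEC23B (0.252) and VMA21 (0.346), which are described with their lists. RAP2A, a small GTPase named in work on miR-376a*, read 367 to 421 with miR-376a*A, 680 to 731 with miR-376a*G and 461, 652 and 715 in controls. Its pooled change was -0.18 (adjusted p 0.473), and without control replicate 1 it was -0.35 (adjusted p 0.0115).

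**Figure D3:**
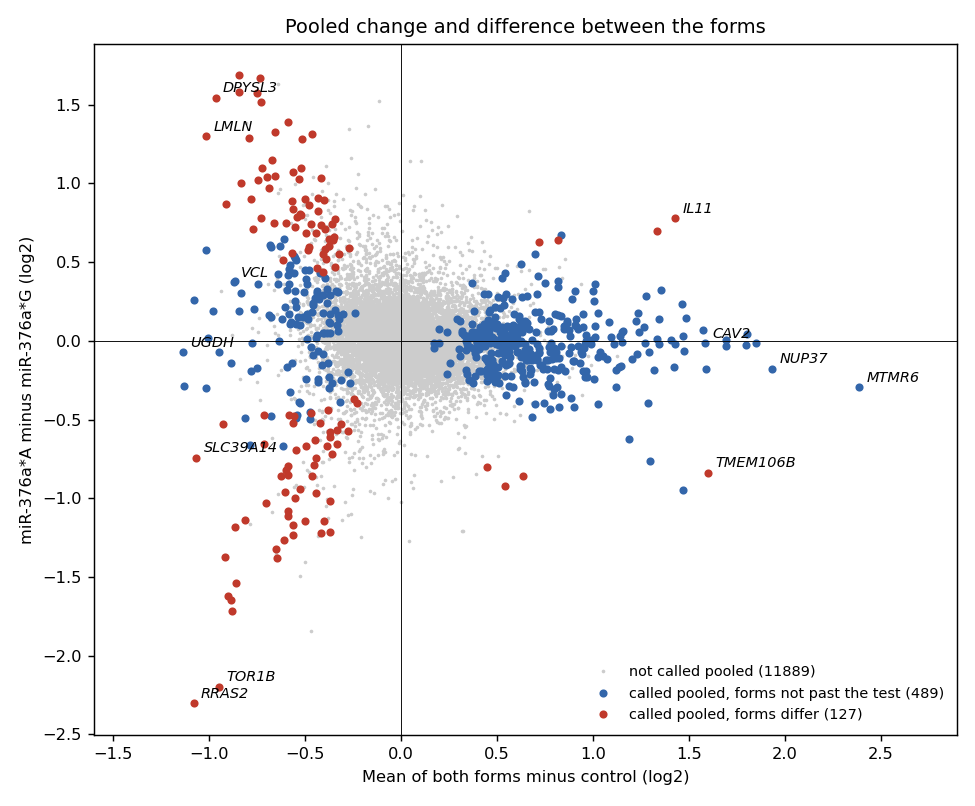
Pooled change (x axis, log2) and difference between the forms, miR-376a*A minus miR-376a*G (y axis, log2), 1 point per gene. Red marks the 127 called genes whose forms differed, blue the 489 called genes whose forms did not pass that test and grey the 11889 genes not called; the blue points on the right have a median distance of 0.10 from 0 on the y axis, and 119 of the 127 red points are on the left.

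Genes called only without control replicate 1 mostly had that array beyond the other controls on the side of the treated arrays. Their selection favours that position, so the shares that follow are largely set in advance. Control replicate 1 was the highest control for 76.7% of the 752 further rises, against 48.9% of all genes tested. It was the lowest for 90.4% of the 874 further falls, against 39.9% of all genes tested. TENT5C, a poly(A) polymerase, read 95.1 to 145 in treated arrays and 108, 275 and 315 in controls. Its change was -0.73 (adjusted p 0.131) on all arrays and -1.15 (adjusted p 1.15e-05) without control replicate 1, while its other probe set was at 0.09 and 0.01 and did not pass in either run. RAB8B, a GTPase of vesicle traffic, read 108 to 268 in treated arrays and 137, 390 and 398 in controls, with changes of -0.64 (adjusted p 0.21) and -1.08 (9.3e-06). Of its other probe sets 1 was at 0.10 and 0.14 and did not pass, and 1 was at -0.47 and passed without control replicate 1, at -0.85. SERINC5, a membrane protein that lowers the infectivity of retroviruses, read 123 to 218 in treated arrays and 139, 397 and 411 in controls, with -0.64 (adjusted p 0.259) and -1.09 (0.000539). ROR1, a receptor for Wnt ligands, and ACVR1, a receptor for bone morphogenetic proteins, were low with miR-376a*G alone. ROR1 read 103 to 144 with miR-376a*A, 29.0 to 48.9 with miR-376a*G and 84.0, 139 and 205 in controls; another ROR1 probe set was called on all arrays as well, at -0.96 (adjusted p 0.000502), and 1 more was at 0.06. ACVR1 read 210 to 232 with miR-376a*A, 54.8 to 64.9 with miR-376a*G and 98.9, 256 and 271 in controls.

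Among the further rises, SNAPC4, a subunit of the factor that starts transcription of small nuclear RNAs, read 57.9 to 117 in treated arrays and 75.2, 27.9 and 33.4 in controls, with changes of 0.88 (adjusted p 0.0773) and 1.23 (0.00104); its other probe set was at 0.32 and 0.27 and did not pass. QTRT1, which puts queuine into transfer RNAs, read 28.0 to 61.5 in treated arrays and 39.4, 10.5 and 18.4 in controls, with 0.68 (adjusted p 0.0837) and 0.94 (0.00175). HMGB3P1, a pseudogene whose probe set may also bind transcripts of near-identical copies, was at 155 to 295 in treated arrays and at 393, 126 and 121 in controls, with 0.37 (adjusted p 0.634) and 0.93 (0.00798). CFAP70 and the antisense RNA DHRS4-AS1 had 0.74 each on all arrays and 1.13 and 1.09 without control replicate 1. In each of the 5 genes control replicate 1 was the highest control.

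The gene lists were chosen with earlier results of these data known, so their counts are no support on their own. Genes of G2 phase and mitosis were the list with most rises. Of 40 measured members 11 rose and 0 fell, beside 3.04% and 1.89% of all genes tested, 37 had a change above 0, and the median change was 0.29, against 0.0025 for all genes. Without control replicate 1, 23 rose and 1 fell, beside 9.05% and 8.88% of all genes, with a median of 0.28. Without any 1 treated array 7 to 9 rose. Control replicate 1 was the lowest control for 17 of the 40 and the highest for 18, beside 39.9% and 48.9% of all genes tested. CCNA2, the cyclin that acts in S phase and G2, read 518, 560 and 614 in treated arrays and 171, 191 and 234 in controls. The groups were far apart: CCNA2 rose by 1.42 (SE 0.09, adjusted p 4.65e-05), and by 1.37 without control replicate 1, and its other probe set rose by 1.66. TOP2A, the topoisomerase that untangles chromosomes before division, read 679, 844 and 965 in treated arrays and 129, 333 and 488 in controls. Its rise of 1.46 (SE 0.29, adjusted p 0.0201) was 0.97 without control replicate 1, and it missed the threshold without miR-376a*A replicate 2 or 3 or miR-376a*G replicate 1 or 2 (adjusted p 0.0533 to 0.0580). MKI67, the proliferation antigen Ki-67, read 187, 231 and 308 in treated arrays and 106, 136 and 137 in controls and rose by 0.83 (SE 0.13, adjusted p 0.00482), or 0.77 without control replicate 1. Its 3 other probe sets were lower, with 1 called at 0.48 and 2 at 0.26 that did not pass on all arrays. Without control replicate 1 those 2 passed, at 0.46 (adjusted p 0.00508) and 0.41 (0.0379). NEK2, a centrosome kinase, rose by 1.15 (adjusted p 0.0295), and by 0.74 without control replicate 1, and did not pass when any 1 treated array was left out (adjusted p 0.0595 to 0.0755). NDC80 of the kinetochore rose by 0.80, CDCA3 by 0.65 and the checkpoint kinase BUB1B by 0.55; KIF2C, CCNB2, CDCA8 and PRC1, which act on spindle and division, rose by 0.34 to 0.44.

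Promoters of these genes often hold the CHR element, through which cell cycle repressor complexes act, and CCAAT boxes, bound by the factor NF-Y. The promoter of TOP2A is shown because both motifs occur in it, and that of CCNA2 because the gene had the smallest adjusted p of the list. Each runs 5′ to 3′ on the minus strand from 250 bases before to 50 bases after the RefSeq start in GRCh38.p14, and capitals mark TTTGAA (CHR) or CCAAT in either orientation.
TOP2A, chr17:40417847-40418146: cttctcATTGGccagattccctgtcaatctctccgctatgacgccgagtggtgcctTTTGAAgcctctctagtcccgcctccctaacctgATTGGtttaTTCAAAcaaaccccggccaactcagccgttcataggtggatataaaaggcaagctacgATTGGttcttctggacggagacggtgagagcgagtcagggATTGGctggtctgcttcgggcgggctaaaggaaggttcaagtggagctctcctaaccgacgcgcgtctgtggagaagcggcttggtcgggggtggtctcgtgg
CCNA2, chr4:121823834-121824133: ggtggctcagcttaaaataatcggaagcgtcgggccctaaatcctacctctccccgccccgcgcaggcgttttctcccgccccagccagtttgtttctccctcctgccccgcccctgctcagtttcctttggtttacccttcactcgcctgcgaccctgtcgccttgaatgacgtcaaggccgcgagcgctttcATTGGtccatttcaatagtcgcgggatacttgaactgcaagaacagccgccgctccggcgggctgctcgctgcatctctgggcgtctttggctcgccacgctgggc
The TOP2A window held 2 matches to TTTGAA and 4 to CCAAT, and the CCNA2 window 0 and 1. Only these exact letters were searched, so 0 matches do not show that a variant of the CHR element is absent. A promoter was in the RefSeq table for 34 of the 40 list members; 24 of them (70.6%) held TTTGAA and 28 (82.4%) CCAAT, against 10.2% and 36.8% of the 10180 tested genes with a promoter and 15.4% and 35.7% of all 27305 promoters. Both strands were searched, and a match of one motif may overlap a match of the other. Among all genes called higher 58 of 310 promoters (18.7%) held TTTGAA, and among those called lower 20 of 200 (10%) did. A match is a description of these letters and was not tested as a site.

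Of 39 measured genes of S phase and DNA replication 7 rose and 0 fell, beside 3.04% and 1.89% of all genes. The median was 0.21, with 36 above 0. Without control replicate 1, 13 rose, beside 9.05% of all genes. The count was 2 to 4 without any other single array. It was 3 to 5 with other normalizations, without the filter, with the mean of probe sets, without the intensity trend or with the treated arrays as 1 group. CCNE1, the cyclin that starts S phase, read 269, 321 and 348 in treated arrays and 148, 190 and 174 in controls and rose by 0.80 (SE 0.09, adjusted p 0.00118). GINS2, of the replicative helicase, rose by 0.56, while its other probe set was at -0.16 and did not pass. ORC1, which marks replication origins, rose by 0.50 (adjusted p 0.0244), and 7 of the 9 runs that left out 1 array, all but miR-376a*A replicate 1 and control replicate 1, ended its call (adjusted p 0.0574 to 0.0789). POLE2 and PRIM1, of the DNA polymerases, rose by 0.39 and 0.35, and RFC4, a clamp loader subunit, and TYMS, which makes thymidylate, by 0.24 and 0.20. In bulk RNA a larger share of cells in a phase and more RNA per cell cannot be told apart.

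Of 24 measured targets of NF-kappaB, the transcription factor of inflammatory signals, and related cytokines, 6 rose and 0 fell, beside the same shares of all genes, with a median of 0.21 and 18 above 0. Without control replicate 1, 11 rose and 1 fell, beside 9.05% and 8.88% of all genes, and without any 1 treated array 2 rose. CXCL8, a chemokine that attracts neutrophils, read 599, 730 and 843 in treated arrays and 274, 433 and 438 in controls and rose by 0.89 (SE 0.12, adjusted p 0.00305), or 0.70 without control replicate 1. LIF, another cytokine of the interleukin-6 family, rose by 0.54 (adjusted p 0.0214), from 0.08 for miR-376a*A and 1.01 for miR-376a*G. VCAM1, an adhesion molecule, rose by 0.87 (adjusted p 0.0476), and PTGS2, the inducible cyclooxygenase, by 0.78 (adjusted p 0.0421). Both lost the threshold without any 1 treated array (adjusted p 0.0849 to 0.114 and 0.0863 to 0.102), and VCAM1 also without control replicate 2 (0.0826). CXCL1 rose by 0.65 (adjusted p 0.0485); control replicate 2 read 46.8, near the lowest treated array at 47.5. Interferon-stimulated genes, which report the sensing of foreign RNA, had 0 of 32 members called by limma in either run, with 4 and 5 at an unadjusted p under 0.05, a smallest adjusted p of 0.133 and medians of 0.07 and 0.16. Control replicate 1 was the highest control for 21 of the 32, beside 48.9% of all genes tested.

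Few genes of the metabolic lists passed on all arrays, and more did without control replicate 1. Of all genes tested, 3.04% rose and 1.89% fell on all arrays, and 9.05% rose and 8.88% fell without control replicate 1. Of 20 genes of cholesterol synthesis and its control 2 fell and 0 rose, with a median of -0.11 and 7 above 0. They were INSIG1, given above, whose other 2 probe sets fell by 0.60 and 0.59, and IDI1, the isomerase that supplies isoprene units, at -0.40 (adjusted p 0.0382). The IDI1 call ended without any 1 treated array or control replicate 3 (adjusted p 0.0679 to 0.106). Another IDI1 probe set fell by 0.44, and 2 more were at 0.18 and -0.14 and did not pass. Without control replicate 1, 6 genes of the list fell and 1 rose, among them HMGCS1, an early enzyme of the pathway, with -0.44 against -0.27 on all arrays. Of 35 glycolysis and hypoxia genes 2 fell, the glucose carrier SLC2A1 at -0.33 (adjusted p 0.0421) and the regulator PFKFB4 at -0.49 (adjusted p 0.0477). Both calls ended without any 1 treated array or control replicate 3 (adjusted p 0.0674 to 0.112 and 0.0575 to 0.113), and the other probe sets of these genes, at -0.18 and -0.28, did not pass. The glycolysis list had 2 rises and 5 falls without control replicate 1. Of 20 genes of the oxidative stress response run by NRF2, 1 rose and 2 fell on all arrays, and 2 rose and 6 fell without control replicate 1; without any 1 treated array or control replicate 2 there was 1 fall. GSR, which recycles glutathione, read 223, 284 and 313 in treated arrays and 120, 126 and 137 in controls. It rose by 1.00 (SE 0.09, adjusted p 0.000338). A second probe set was at 0.41 and did not pass on all arrays. That probe set passed without control replicate 1, at 0.49 (adjusted p 0.00833). HMOX1, which breaks down haem, read 595, 705 and 827 in treated arrays and 1376, 994 and 980 in controls and changed by -0.62 (SE 0.10, adjusted p 0.00737). SLC7A11, the cystine carrier, was at -0.53 (adjusted p 0.0281). Among the runs leaving out 1 array, only that without control replicate 1 kept this call (-0.69). On all arrays its other probe sets were at -0.24 and -0.44 and did not pass. Without control replicate 1 that at -0.44 passed, at -0.65 (adjusted p 0.000213).

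**Figure D4:**
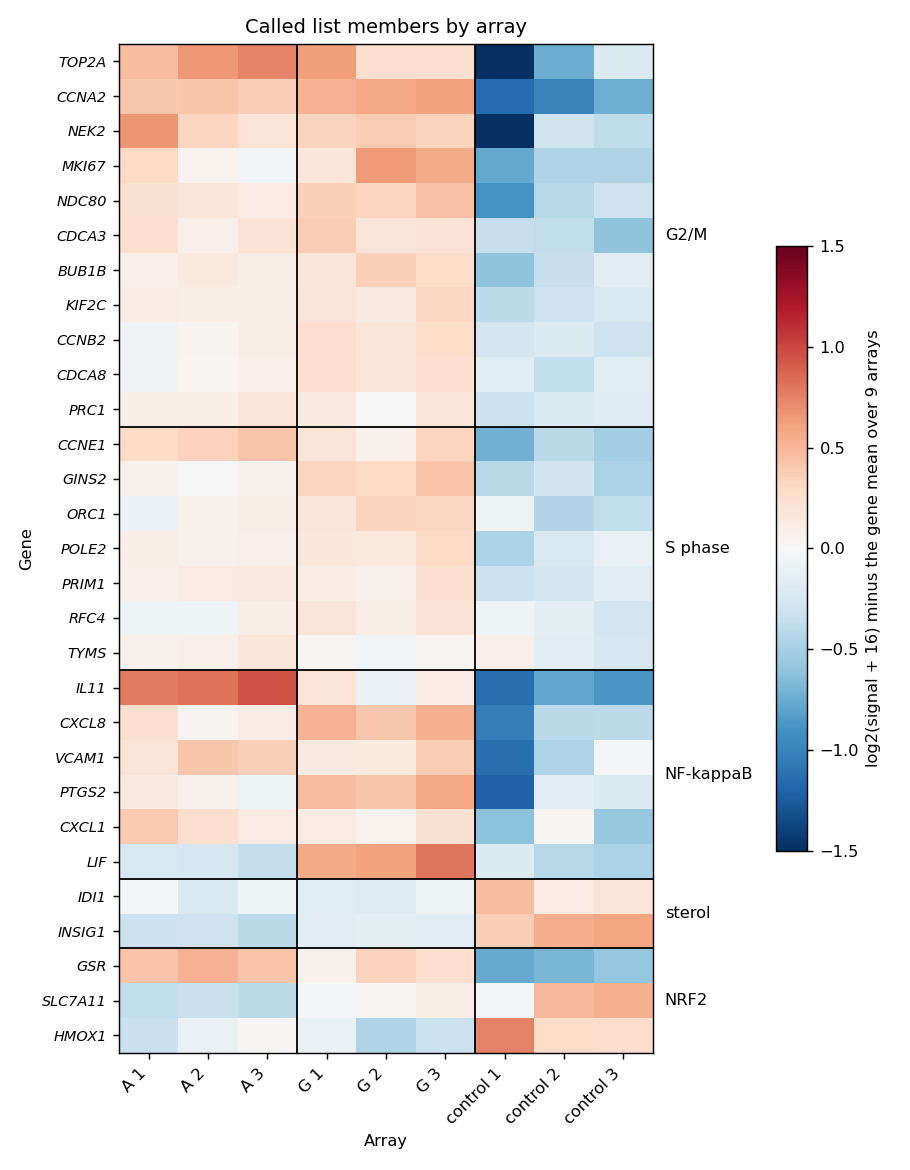
Heat map of called members of 5 lists (11 of G2 phase and mitosis, 7 of S phase, 6 NF-kappaB targets, 2 sterol and 3 NRF2 genes), 1 row per gene and 1 column per array. Colour is log2(signal + 16) of the deposited signal, not quantile normalized, minus the gene's mean over the 9 arrays, red above it and blue below. Colours are limited to 1.5 either way; the rises are mostly red in the treated columns and blue in the controls, LIF is red with miR-376a*G alone, and control replicate 1 is the lowest column for TOP2A and NEK2.

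Receptors and signalling genes had calls in both directions. For these and the lists that follow, the shares of all genes called are 3.04% higher and 1.89% lower on all arrays and 9.05% and 8.88% without control replicate 1, and a list with a few calls lies near them. EGR1, an immediate-early transcription factor, read 184, 295 and 345 in treated arrays and 59.8, 157 and 139 in controls and rose by 1.19 (SE 0.23, adjusted p 0.0173). It was at 0.82 without control replicate 1, and it missed the threshold without miR-376a*G replicate 2 (adjusted p 0.0523). Of 31 immediate-early and MAPK feedback genes 2 rose and 1 fell: beside EGR1, DUSP6, a phosphatase that turns off ERK, rose by 0.78 (adjusted p 0.0232) and DUSP5, another such phosphatase, fell by 0.49. This list had 5 rises and 5 falls without control replicate 1; without control replicates 2 or 3 the count did not move, and without any 1 treated array it had 0 to 2 rises and 1 fall. The DUSP6 call ended without any 1 treated array other than miR-376a*A replicate 3 (adjusted p 0.0574 to 0.0653). Of 20 targets of YAP and TEAD 2 rose and 1 fell, against 2 and 4 without control replicate 1. WWTR1, the coactivator TAZ itself, rose by 0.75 (adjusted p 0.00859). CCN2, a matrix-associated growth factor, rose by 0.45 (adjusted p 0.0168) from 0.05 for miR-376a*A and 0.85 for miR-376a*G, and missed the threshold without miR-376a*A replicate 2 (adjusted p 0.0546) or control replicate 2 (0.0589). AXL, a receptor tyrosine kinase, fell by 0.41 (adjusted p 0.01), with another probe set at 0.15 that did not pass. TGFBR2, a receptor for TGF-beta, rose by 0.61 (adjusted p 0.0101) and was the 1 call among 28 genes of that response; 3 rose and 1 fell without control replicate 1.

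Of 30 integrin and focal adhesion genes 2 rose and 2 fell on all arrays. There were 5 rises and 6 falls without control replicate 1, and 1 of each without any 1 treated array. PARVA, which links integrins to actin, rose by 0.81 (adjusted p 0.0109). Its other probe sets were at -0.36 to 0.77 on all arrays, with none past the threshold. Without control replicate 1 those at 0.29 and 0.77 passed, at 0.37 and 0.35 (adjusted p 0.0103 and 0.0278). ITGA2, an integrin for collagen, rose by 0.30, and VCL fell as above. LPP, a partner of vinculin, was at -0.41 (adjusted p 0.0228), which did not pass without any 1 treated array or control replicate 3 (adjusted p 0.0521 to 0.0787). On all arrays 2 of its 6 other probe sets fell, by 0.79 and 0.81. Without control replicate 1 that at -0.35 also passed, at -0.50 (adjusted p 0.00848). Of 6 caveola genes CAV2 rose and PACSIN2, which bends membranes, fell by 0.59 (adjusted p 0.00737), from -0.98 for miR-376a*A and -0.19 for miR-376a*G. Of 33 genes of coated vesicles and ER-Golgi traffic (4 rises and 4 falls without control replicate 1) SEC22C and the coat protein COPB1 (0.24) rose, and SEC23B, of the coat of vesicles that leave the ER, fell by 0.92 (adjusted p 0.00316). SEC23B read 206 to 229 with miR-376a*A, 532 to 680 with miR-376a*G and 888, 589 and 674 in controls. Of 15 ER-shaping genes ATL3 rose and the reticulon RTN4 fell by 0.44 (adjusted p 0.00646), from -0.81 and -0.07. Of 35 lysosome and Ragulator genes TMEM106B and LAMTOR3 rose (3 rises and 4 falls without control replicate 1), and VMA21, an assembly factor of the proton pump, and RRAGC, a Rag GTPase, fell. VMA21 read 357 to 377 with miR-376a*A, 1143 to 1179 with miR-376a*G and 1162, 1153 and 1345 in controls, while its other probe set was at 0.03. RRAGC was at -0.43 (adjusted p 0.0352), a call ended by leaving out any 1 treated array (adjusted p 0.0602 to 0.0962).

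Phosphoinositide genes had 3 rises and 1 fall among 30: MTMR6 and WDFY1, SYNJ1, a lipid phosphatase of endocytosis, at 0.95 (adjusted p 0.0221), and the lipid kinase PIP4K2A, which fell by 0.72 (adjusted p 0.000492). Of the 30, 3 rose and 5 fell without control replicate 1. The SYNJ1 call ended without any 1 treated array (adjusted p 0.0521 to 0.0619), and its other probe set was at 0.13. Among 17 palmitoyltransferases ZDHHC20 rose, and ZDHHC5 (-0.43, adjusted p 0.0403) and ZDHHC7 (-0.41, adjusted p 0.0174) fell; the ZDHHC5 call was kept by the run without control replicate 1 alone among those leaving out 1 array (adjusted p 0.0691 to 0.114 in the others), and its other probe set was at -0.19. ZDHHC7 missed the threshold without miR-376a*A replicate 1 or 2, miR-376a*G replicate 1 or 2 or control replicate 2 (adjusted p 0.0514 to 0.0606). Among 28 nuclear pore genes NUP37 rose, NUP58 was at 0.64 (adjusted p 0.033) and NUP50 at -0.36 (adjusted p 0.0383); without control replicate 1, 2 of the list rose and 3 fell. On all arrays the 3 other NUP58 probe sets were at -0.21 to 0.14 and the 3 of NUP50 at -0.16 to -0.02, none past the threshold. Without control replicate 1 the NUP58 probe set at 0.14 passed as a fall, at -0.47 (adjusted p 0.0161). In that run the NUP50 probe set at -0.16 passed, at -0.55 (adjusted p 0.0165). With the mean of probe sets NUP58 had an adjusted p of 0.737 on all arrays. The NUP58 call ended without any 1 treated array or control replicate 2 (adjusted p 0.0591 to 0.0926), and that of NUP50 in every such run but that without control replicate 1 (adjusted p 0.0687 to 0.112).

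Of 25 genes of the miRNA and RNA editing machinery 1 rose and 2 fell on all arrays, and 1 rose and 5 fell without control replicate 1; without 1 of the treated arrays 0 or 1 rose and 1 or 2 fell. TNRC6C, a partner of Argonaute in silencing, rose by 0.49 (adjusted p 0.0159) and missed the threshold without miR-376a*A replicate 2 or miR-376a*G replicate 2 (adjusted p 0.0527 and 0.0523). DCP1A, the partner of DCP2 in decapping, was at -0.46 (adjusted p 0.0223), lost in every run that left out 1 array except those without miR-376a*G replicate 3 or control replicate 1 (adjusted p 0.0588 to 0.0693). Among 26 apoptosis genes BCL2, which blocks cell death at mitochondria, read 42.7, 49.2 and 76.8 in treated arrays and 23.7, 24.8 and 26.6 in controls and rose by 0.79 (SE 0.12, adjusted p 0.00448), while another probe set was at -0.21 and did not pass. TNFRSF10B, a death receptor for TRAIL, was at -0.46 (adjusted p 0.0234), and read 471 to 529 with miR-376a*A, 177 to 200 with miR-376a*G and 358, 450 and 463 in controls. Its 2 other probe sets were at 0.19 and 0.09, and with the mean of probe sets its adjusted p was 0.791. The call ended in every run that left out 1 array except for control replicate 1 and miR-376a*A replicate 1 (adjusted p 0.0502 to 0.0783). Of 23 p53 targets, TNFRSF10B fell, and FAS, another death receptor, and TP53INP1, a stress protein, rose by 0.51 and 0.78. Both rises missed the threshold without any 1 treated array (adjusted p 0.0563 to 0.0718 and 0.0922 to 0.113), TP53INP1 also without control replicate 2 (0.0577). The list had 5 rises and 3 falls without control replicate 1. Of the 4 other FAS probe sets 3 rose, by 0.60 to 0.76, and 1 was at -0.09. XBP1, a transcription factor of the unfolded protein response, read 505 to 555 in treated arrays and 305, 343 and 355 in controls and rose by 0.60 (SE 0.07, adjusted p 0.00152), the 1 call among 29 genes of that response on all arrays, where 3 rose without control replicate 1.

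Few ribosomal protein genes passed the test on all arrays. Of 75 mitochondrial ribosome genes MRPS14 alone rose on all arrays, with a list median of 0.04, while without control replicate 1 there were 18 rises and a median of 0.13. Control replicate 1 was the highest control for 57 of the 75, beside 48.9% of all genes tested. Of 50 cytosolic ribosomal protein genes 0 were called by limma in either run, with 3 and 2 at an unadjusted p under 0.05. Among the neuron markers SNAP25, a vesicle fusion protein, rose by 1.03 (adjusted p 0.00148). Another SNAP25 probe set rose by 0.62, and 1 at 0.34 did not pass on all arrays but did without control replicate 1, at 0.42 (adjusted p 0.0243). STMN2, a protein of growing neurites, rose by 0.62 (adjusted p 0.0174). It was dim, at 23.3 to 37.4 in treated arrays and 15.6, 14.6 and 13.0 in controls. SYT1, the calcium sensor of synaptic vesicles, was at -0.56 (adjusted p 0.0324). It read 484 to 515 with miR-376a*A, 194 to 286 with miR-376a*G and 468, 459 and 593 in controls. The other SYT1 probe set was at -0.37 and did not pass on all arrays. That probe set passed without control replicate 1, at -0.60 (adjusted p 0.00581). The SYT1 call ended with the treated arrays as 1 group. STMN2 missed the threshold without miR-376a*A replicate 1 or 2 or control replicate 3 (adjusted p 0.0507 to 0.0597), and SYT1 without any miR-376a*A replicate, miR-376a*G replicate 1 or 2 or control replicate 3 (adjusted p 0.0715 to 0.0994). The summed signal of all 10 neuron markers was 1185 to 1629 in treated arrays and 1358 to 1647 in controls, and the part of these genes in the other results was not tested.

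**Figure D5:**
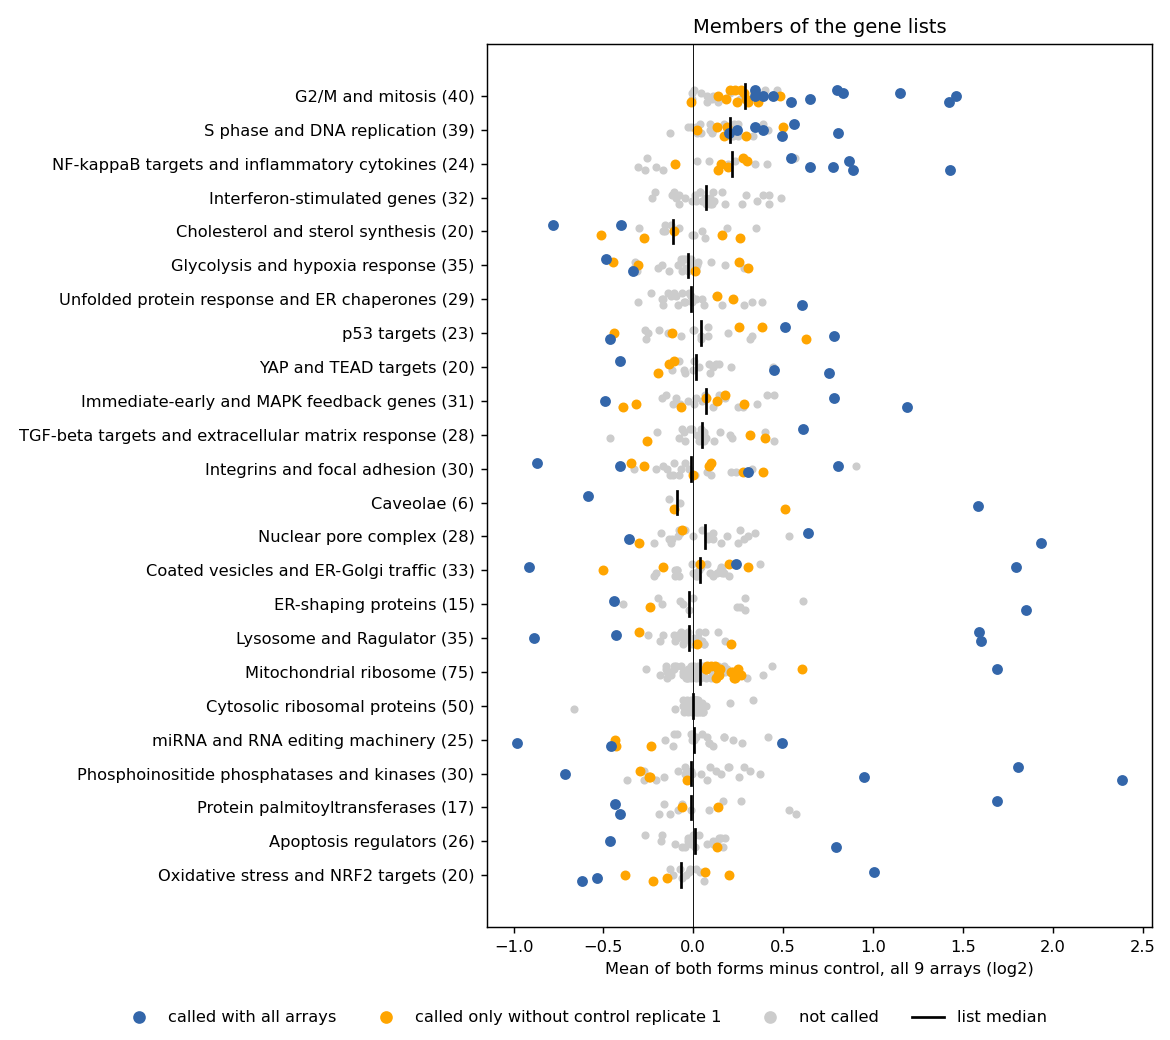
Pooled change (log2) of each measured member of the gene lists, 1 strip per list; blue points are called on all arrays, orange points only without control replicate 1 and grey points in neither, and the bar is the list's median. The strips of G2 phase and mitosis and of S phase lie mostly above 0, with medians of 0.29 and 0.21, and most other medians lie near 0.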

How the data were processed

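Total RNA of 9 transfections was labelled with Biotin-ULS and hybridised to Affymetrix arrays, per the labels' protocols (the submitters' processing notes list GCOS 1.4.0.036). The values the authors deposited are linear signal intensities for 54675 probe sets, whose mean after trimming 2% at each end was 100.01 to 100.013 on every array, so they had been scaled to a common level. How background was removed and probes summarised is not given in the sources used here; scaling hides a change common to most transcripts. Intensities were turned into log2(signal + 16), quantile normalized, and filtered at the 50th percentile of probe set means (5.17 on the log2 scale). A gene was represented by its brightest probe set, which left 12505 genes, 5993 of them with several. Of all probe sets 41097 had 1 gene symbol, 1801 several and 11777 none; 41043 of the first were in RefSeq (GRCh38.p14). Signals quoted per array are as deposited, and the controls were ranked as lowest or highest on these signals. Overlap was judged after normalization, and fold changes understate the change of dim genes.

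The 3 group means were fitted in R 4.3.3 with limma 3.58.1 (lmFit, eBayes with an intensity trend), and p-values were adjusted over all genes by the Benjamini-Hochberg method. The run without control replicate 1 was normalized again on 8 arrays and kept the same genes. The number of arrays limits the precision. The procedure was tested on simulated data. Named genes were the 15 rises and 15 falls with the largest smaller form change among called genes without overlap; 5 rises and 5 falls with a form difference; 5 rises and 5 falls called only without control replicate 1; up to 4 members per list; and RAP2A. List members beyond these were chosen after their values were seen. The members and lists were chosen with earlier results of these data known. Alternatives changed the arrays, normalization, pseudocount, filter, probe set rule, variance model and minimum change, and a replicate block was tried.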

Additional observations from a re-analysis of the deposited data

Results flagged for a closer look

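For 29 of the named genes the response differed between the forms by limma's test of miR-376a*A minus miR-376a*G. The difference is given on the log2 scale with its adjusted p, and each rests on 3 arrays per form.

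Among the leading pooled rises, TMEM106B had a difference of -0.84 (0.0195), IL11 of 0.78 (0.0151), NEURL1B of 0.70 (0.0169), SRPRA of 0.64 (0.00475) and DCAKD of 0.63 (0.0104).

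Among the leading pooled falls, SLC39A14 had -0.74 (0.00154), RRAS2 -2.30 (8.61e-06), LMLN 1.30 (0.00141), DPYSL3 1.54 (1.14e-05) and TOR1B -2.20 (8.05e-06). Of the genes called only without control replicate 1, ROR1 had 1.38 (0.0151) and ACVR1 1.63 (0.0104). RAP2A had -0.80 (0.0149).

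Among list members lower with miR-376a*A, CCN2 had -0.80 (0.00197), CCN1 -0.42 (0.00377), PACSIN2 -0.79 (0.00354), NUP58 -0.86 (0.0235), NUP50 -0.72 (0.00301), SEC23B -1.37 (0.000976), RTN4 -0.74 (0.00104), VMA21 -1.65 (4.51e-05) and PIP4K2A -0.65 (0.00226). Among those lower with miR-376a*G, TNFRSF10B had 1.31 (0.000245), LPP 0.55 (0.0147), CAV1 0.35 (0.0310), SEC22B 0.87 (0.0131), ZDHHC5 0.82 (0.00455), ZDHHC7 0.44 (0.0325) and SYT1 1.07 (0.00328). Of these 29 genes, RRAS2, TOR1B and VMA21 read lowest with miR-376a*A by the largest margins, and ACVR1 and DPYSL3 lowest with miR-376a*G.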

How the results depend on the processing

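No called change of a named gene turned its sign under any alternative run. Leaving out 1 array in turn gave 293 to 2242 calls, with 191 to 1132 rises and 102 to 1110 falls, against 616, 380 and 236 on all arrays; the highest values are those without control replicate 1. Called genes whose forms differed ranged from 51 to 550, against 127. The deviations of same-numbered arrays from their group means correlated at 0.125 to 0.187 between miR-376a*G and control, at -0.361 to 0.032 between miR-376a*A and control and at -0.098 to -0.031 between the forms, so the numbers were not taken to pair the arrays. With the replicate number as a block there were 380 calls, 243 rises and 137 falls, with a form difference in 73, and 1883 calls in the run without control replicate 1. The block left 9 rises of G2 phase and mitosis, 2 of S phase and 3 of NF-kappaB targets. The p53 list then had 0 rises and 0 falls, and the palmitoyltransferases had 1 rise and 0 falls. YAP and TEAD targets kept 2 rises and 1 fall. Centring on medians gave 116 falls and 70 calls with a form difference, and moved the median of all genes by under 0.1; in the run without control replicate 1 it gave 1960 calls. Array weights gave 2683 calls, 1425 rises and 1258 falls. With the treated arrays as 1 group there were 366 calls, of which 53 fell and 85.5% rose. A minimum change of 1.5-fold left 18 calls, 17 rises and 1 fall. The cause of these shifts was not tested. A larger spread or a minimum change makes calls rarer by construction. Leaving out 1 array went with fewer calls, or with more where that array was control replicate 1. The counts of calls under the other settings, 481 to 723, were within 1.5 times the main count. The block fit of the run without control replicate 1 and its centring on medians were added after the data were seen. Depth cannot be given for arrays, and 3 against 6 arrays limit what small changes can pass.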
